A study of Mus musculus with 5 samples.

Results

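The genes that write, copy and remove DNA methylation were examined in bone marrow progenitors that carried a deletion in Bcor. These were Dnmt1, Dnmt3a, Dnmt3b, Uhrf1, Tet1, Tet2, Tet3, Idh1 and Idh2, a list of names that uses no expression value as a criterion, although earlier results of these data were known when it was drawn up. They made up 9 of the 52550 genes in the counts table, and all 9 had enough reads to be tested. Dnmt3a was the only enzyme past the threshold of a test across all genes, with a level in BcorΔE9-10 cells that was 1.67 times that in BcorWT cells. Over all genes tested 10.1% were past this threshold, and the Dnmt3a call was lost in 11 of 16 alternative fits, among them each fit without 1 library. Tet2 and Tet3 were also higher in every BcorΔE9-10 library than in both BcorWT libraries, as for 22.6% of all genes tested. The test did not pass for either. Tet1 stood apart as well and did not pass. It reached the filter on low counts only through the BcorΔE9-10 libraries, so its place here is no support. Dnmt1, Dnmt3b, Idh1 and Idh2 had overlapping ranges. Uhrf1 was slightly lower in every BcorΔE9-10 library, as for 20.3% of all genes tested, and did not pass the test (limma adjusted p = 0.270).

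Methyl groups on cytosine are copied to the new DNA strand after replication by Dnmt1, which Uhrf1 brings to hemimethylated CG sites, while Dnmt3a and Dnmt3b place methyl groups on unmethylated sites. Tet dioxygenases oxidise methylcytosine, the first step of its removal, and they consume 2-oxoglutarate, which the isocitrate dehydrogenases Idh1 and Idh2 produce. In human myeloid leukaemia DNMT3A, TET2, IDH1 and IDH2 are recurrently mutated, and BCOR, a subunit of a Polycomb complex that places ubiquitin on histone H2A, is mutated in some of the same patients.

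RNA was taken from KL cells, the Lin-cKIT+Sca-1- fraction of bone marrow that holds committed myeloid progenitors, at 20 weeks after tamoxifen. The BcorΔE9-10 group (genotype scl-Cre-ERT +; Bcorfl/y, 3 libraries) had lost exons 9 and 10 of Bcor. The BcorWT group (scl-Cre-ERT +; Bcorwt/y, 2 libraries) carried the same Cre transgene and received the same tamoxifen, injected at 1 mg daily over 5 days when the animals were 3 to 6 months old. The transgene is driven by a stem cell element of the Scl (Tal1) gene, so recombination was induced in stem cells and the KL cells descended from them. The fraction of KL cells that had recombined is not known from these counts. QuantSeq libraries read the 3′ end of each polyadenylated transcript, and total counts ran from 5998924 to 8303999 per library. The labels number the libraries without tying them to named animals, so p-values measure the spread between these libraries.

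The libraries were first checked against their labels. Bcor itself had 196, 168 and 185 counts in BcorΔE9-10 and 83 and 109 in BcorWT, but its 3′ reads lie outside the removed exons and check nothing. The level was higher by 0.78 on the log2 scale (limma adjusted p = 0.0313), a call lost after GC correction (0.39, limma adjusted p = 0.279) and in 6 of 16 alternatives in all. Kit, the receptor used to gate the cells, was at 51.0 ± 2.14 CPM (counts per 1e+06 of the scaled library, SD, n = 3) in BcorΔE9-10 and at 18.9 ± 0.977 CPM in BcorWT (SD, n = 2). Its log2 fold change was 1.43 (limma adjusted p = 9.82e-05). Ly6a, which encodes Sca-1, was at most 1.14 CPM in any library and was not tested. Granulocyte-monocyte progenitor genes such as Mpo and Elane were abundant in all 5 libraries, and 1 of 10 such genes was called, Ly6c2 (lower, log2 fold change -0.36, limma adjusted p = 0.0148, called in 10 of 16 alternative fits). Genes of other cells moved with the genotype. Of 10 maturing neutrophil genes, 6 were called lower, among them Ltf (-0.81), Ngp (-0.68), Lcn2 (-0.63) and Mmp9 (-0.71). Camp was the only one with a positive log2 fold change (0.25, limma adjusted p = 0.114). The whole list summed to 149640 to 173550 CPM in BcorΔE9-10 against 216250 to 228655 CPM in BcorWT, with S100a8 and S100a9 the highest in it. Without BcorWT library 1 the log2 fold change of Mmp9 was -0.18. Of 9 tested genes of basophils, mast cells and eosinophils, all 9 had a negative log2 fold change and 7 were called lower. Those called with the largest falls were Ear1 (-2.02), Epx (-1.67), Prg2 (-1.30) and Ear2 (-1.27). The list summed to 427 to 597 CPM against 1073 to 1379 CPM. Ear1 and Ear2 belong to a family of near-identical genes and their counts are uncertain. Among early progenitor genes 2 of 6 tested were called higher, Kit and Cd48 (1.36), the latter not in fits without either BcorWT library. Of 8 tested erythroid genes only Car1 (2.46) was called, in 10 of 16 alternative fits as well. The list summed to 128 to 325 CPM in BcorΔE9-10 and 72.7 to 119 CPM in BcorWT. The highest sum was in BcorΔE9-10 library 3, where Hba-a1 and Hba-a2 were at 68.0 and 71.8 CPM. Both of these genes overlapped between the groups. None of 5 megakaryocyte, 7 lymphoid or 4 macrophage and dendritic genes tested was called. Whether these shifts contributed to the values of the methylation enzymes was not tested. The sort kept lineage-negative cells, a gate that removes cells with surface markers of mature lymphoid, myeloid and erythroid cells. In bulk RNA, more cells of a type and more RNA in each cell cannot be told apart.

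The promoters of the enzymes whose BcorΔE9-10 libraries all lay above the BcorWT libraries are shown first, as the sequences before RefSeq start sites of the genes that stood apart. The starts of Dnmt3a, Tet1, Tet2 and Tet3 all lie within the gene bounds given below, which are those of the counts table and reach further out. RefSeq start sites on build GRCm38.p6, the coordinates of the counts table, gave 15 windows of 250 bases for all 9 genes. CG, the dinucleotide that Dnmt enzymes methylate and Tet enzymes act on, was counted in each window and is in capitals. It reads the same on both strands. The median of all 32851 promoter windows was 6 CG, and 92.1% held at least 1. The first of the listed Dnmt3a starts is preceded by chr12:3806730-3806979 (plus strand) with 38 CG, a number reached by 1.88% of all windows, and a second start lies further in with 40 CG (reached by 1.31%). The third listed Dnmt3a start lies further into the gene and is preceded by chr12:3891494-3891743 with 15 CG (reached by 27.3%). Tet2 is preceded by chr3:133544391-133544640 (minus strand) with 51 CG (reached by 0.067%), and Tet3 by chr6:83441679-83441928 (minus strand) with 17 CG (reached by 23.5%). Tet1 is preceded by chr10:62887325-62887574 (minus strand), also with 15 CG, and its letters are left out because 100 of the bases belong to an annotated exon. For the same reason the window of the Dnmt3a start further in, with 91 exon bases, is left out, while the window at 3891744 holds 16 exon bases. The bases that follow the start at 3806980 were not found in a GENCODE transcript of Dnmt3a. Each sequence runs 5′ to 3′ on the strand of its gene.
Dnmt3a, start at 3806980: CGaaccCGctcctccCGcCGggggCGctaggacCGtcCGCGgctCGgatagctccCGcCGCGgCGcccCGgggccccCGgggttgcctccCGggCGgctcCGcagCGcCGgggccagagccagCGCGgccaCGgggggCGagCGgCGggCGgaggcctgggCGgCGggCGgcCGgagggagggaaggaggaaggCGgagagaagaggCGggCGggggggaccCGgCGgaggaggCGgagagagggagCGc
Dnmt3a, start at 3891744: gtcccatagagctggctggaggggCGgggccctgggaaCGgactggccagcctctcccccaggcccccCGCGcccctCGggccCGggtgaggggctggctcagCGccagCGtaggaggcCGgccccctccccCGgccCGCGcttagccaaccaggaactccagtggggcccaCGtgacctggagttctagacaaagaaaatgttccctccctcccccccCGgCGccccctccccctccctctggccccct
Tet2: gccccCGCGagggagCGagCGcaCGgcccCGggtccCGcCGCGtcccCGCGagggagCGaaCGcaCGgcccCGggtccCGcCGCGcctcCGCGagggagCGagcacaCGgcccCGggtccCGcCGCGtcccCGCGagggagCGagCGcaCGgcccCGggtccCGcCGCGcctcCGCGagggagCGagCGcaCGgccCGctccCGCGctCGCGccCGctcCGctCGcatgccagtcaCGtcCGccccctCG
Tet3: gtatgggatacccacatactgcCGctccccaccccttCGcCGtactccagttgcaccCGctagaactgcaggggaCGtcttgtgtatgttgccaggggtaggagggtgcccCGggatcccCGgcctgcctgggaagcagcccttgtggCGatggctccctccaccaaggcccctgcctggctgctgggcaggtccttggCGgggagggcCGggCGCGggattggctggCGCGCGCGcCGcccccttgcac

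The windows of these genes thus ranged from 15 CG, above the median of all windows, to 51. The other enzymes had 2 to 30 CG per window, with 2, 7 and 26 before the 3 Dnmt1 starts and 10 and 30 before the 2 Uhrf1 starts. The count of CG is a description of the letters, and methylation was not measured in these libraries.

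Levels were compared between the enzymes per kilobase of exon, averaged over the 5 libraries. Dnmt1 was highest at 38.2 CPM per kb, followed by Uhrf1 (35.0), Idh2 (33.4) and Idh1 (29.5). The other enzymes lay far lower, with Dnmt3b at 1.41, Tet2 at 1.11, Dnmt3a at 1.00, Tet3 at 0.941 and Tet1 at 0.0927 CPM per kb. A 3′ tag is counted once per transcript end whatever the length, so division by length lowers the long genes. The levels not divided by length are therefore the ones to compare. On the CPM scale the order was Dnmt1, Uhrf1, Idh2, Idh1, Tet2, Dnmt3a, Tet3, Dnmt3b and Tet1. The ranges over libraries of neighbours in this order overlapped for Idh2 and Idh1, for Tet2 and Dnmt3a, for Dnmt3a and Tet3, and for Tet3 and Dnmt3b, although Tet3 was above Dnmt3b within each of the 5 libraries. Idh2 was above Idh1 in 2 of the 5, among them BcorWT library 2. The KL cells thus held abundant message for copying methylation and for isocitrate dehydrogenases and little for the writing and oxidising enzymes.

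**Figure D1:**
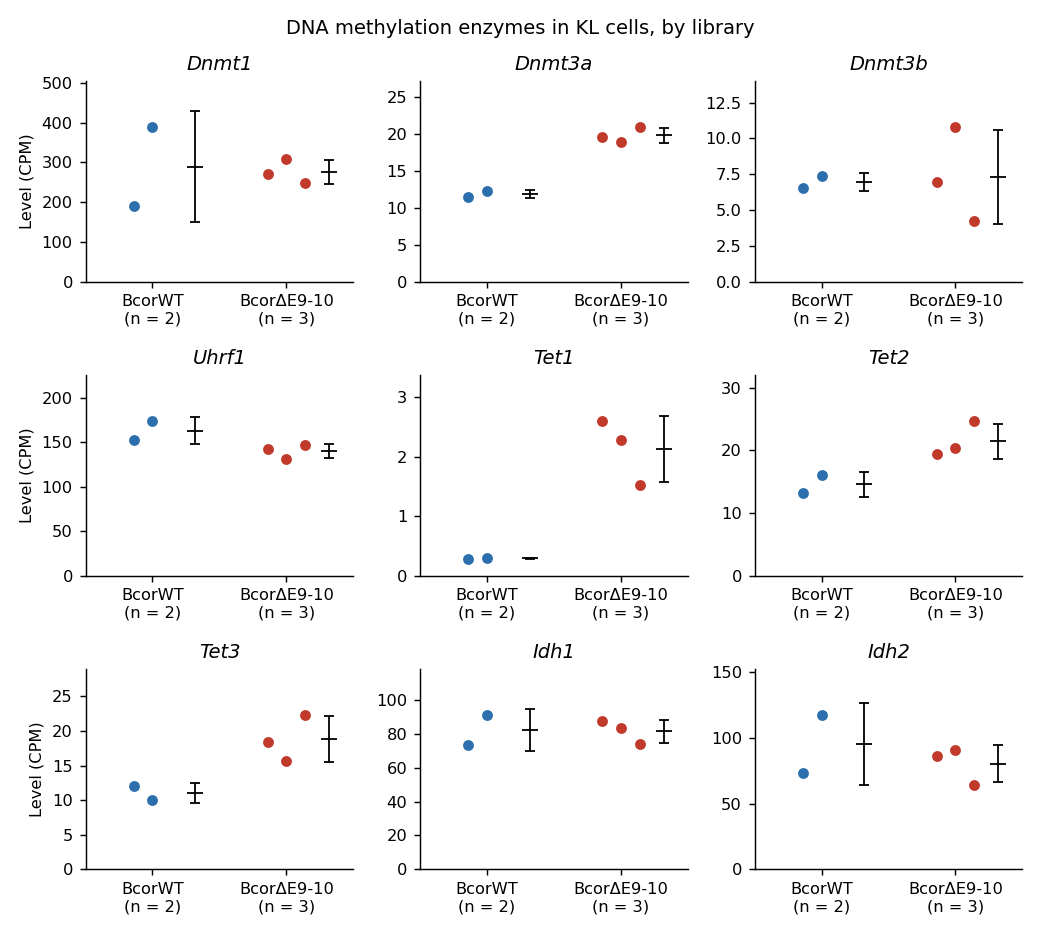
Level of each of the 9 enzymes in CPM (y axis, starting at 0) in each library of the BcorWT (blue, n = 2) and BcorΔE9-10 (red, n = 3) groups, with mean and SD beside the points. Dnmt3a sits at 18.9 to 20.9 CPM in BcorΔE9-10 and 11.5 to 12.3 CPM in BcorWT, while the 2 BcorWT points of Dnmt1 lie at 191 and 388 CPM, on either side of all BcorΔE9-10 points.

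The comparison of BcorΔE9-10 with BcorWT asked whether expression of each enzyme differed with the genotype. Of the 11766 genes tested across the table, 10.1% had a limma adjusted p-value under 0.05, with 6.02% higher and 4.09% lower in BcorΔE9-10. Of the 9 enzymes 1 was called, higher. Of all genes tested, 22.6% had every BcorΔE9-10 library above both BcorWT libraries and 20.3% had every one below. Among the enzymes these numbers were 4 (Dnmt3a, Tet1, Tet2 and Tet3) and 1 (Uhrf1). The study set a p-value threshold of 0.05 together with a log2 fold change beyond 0.5 in size, and the p-value was taken here as unadjusted. It was passed, in the higher direction, by 11.1% of all genes and by 4 of the 9 enzymes, again Dnmt3a, Tet1, Tet2 and Tet3. Tet1 reached the filter on low counts only through the BcorΔE9-10 libraries, where it was high, so it had to differ and its place in these counts is no support. The median log2 fold change of the 9 enzymes was 0.01, against 0.00 over all genes tested.

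Dnmt1 copies methylation patterns at the replication fork (chromosome 9, 20907209 to 20959888, minus strand). It was at 271, 308 and 249 CPM in the BcorΔE9-10 libraries and at 191 and 388 CPM in the BcorWT libraries. The control libraries differed 2.03-fold from one another and enclosed all 3 BcorΔE9-10 libraries, so the groups overlapped. The log2 fold change was 0.01 (SE 0.197, 95% interval -0.41 to 0.43, limma adjusted p = 0.978). The comparison rested on which control was used. Against BcorWT library 2 alone Dnmt1 was called lower (-0.51, limma adjusted p = 0.0314), and against BcorWT library 1 alone it was called higher (0.53, limma adjusted p = 0.0196), in fits that assume the lone control varies like the other libraries.

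Uhrf1, the reader of hemimethylated sites that recruits Dnmt1 (chromosome 17, 56303321 to 56323486, plus strand), was at 142, 131 and 146 CPM in BcorΔE9-10. In BcorWT it was at 152 and 174 CPM. Every BcorΔE9-10 library was thus below both controls. The means were 140 ± 7.64 CPM (SD, n = 3) and 163 ± 15.1 CPM (SD, n = 2). The log2 fold change of -0.21 (SE 0.117, 95% interval -0.46 to 0.03) did not pass (limma adjusted p = 0.270), nor did it in any of 16 alternative fits, all of which gave a negative value between -0.38 and -0.07. The controls differed 1.14-fold for Uhrf1, less than for Dnmt1.

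Dnmt3a, the main enzyme of new methylation in adult blood progenitors (chromosome 12, 3806007 to 3914443, plus strand), had 166, 116 and 179 counts in BcorΔE9-10. The BcorWT libraries had 81 and 83 counts. Scaled to library size these were 19.6, 18.9 and 20.9 CPM against 11.5 and 12.3 CPM. The groups were well apart and each was tight, with means of 19.8 ± 1.01 CPM (SD, n = 3) and 11.9 ± 0.563 CPM (SD, n = 2). Dnmt3a rose, with a log2 fold change of 0.74 (SE 0.213, 95% interval 0.29 to 1.19, limma adjusted p = 0.0368). The direction was the same in all 16 alternative fits, from 0.58 to 0.88, but the call was kept in 5 of them. It was lost whenever any 1 library was left out (limma adjusted p = 0.0619 to 0.188) and after correction for the GC content of transcript ends (0.62, limma adjusted p = 0.0804).

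Dnmt3b, the related enzyme best known from early embryos (chromosome 2, 153649450 to 153687730, plus strand), was low, with 36 to 66 counts per library. It was at 6.97, 10.8 and 4.21 CPM in BcorΔE9-10 and at 6.53 and 7.41 CPM in BcorWT. The BcorΔE9-10 libraries spread 2.56-fold and enclosed both controls. The log2 fold change was -0.09 (SE 0.357, 95% interval -0.85 to 0.66, limma adjusted p = 0.907).

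The makeup of the Dnmt counts was compared within libraries, which does not depend on scaling. Dnmt3a took 6.60%, 5.60% and 7.62% of all Dnmt counts in the BcorΔE9-10 libraries (95% Wilson intervals 5.69 to 7.64, 4.69 to 6.67 and 6.62 to 8.76). In the BcorWT libraries it took 5.50% (4.45 to 6.78) and 3.01% (2.44 to 3.72). All 3 values were higher than both controls, but the intervals of all 3 overlapped that of BcorWT library 1, and none overlapped that of BcorWT library 2. The share of Dnmt1 was 91.0% ± 0.185 (SD, n = 3) against 93.3% ± 2.68 (SD, n = 2), and that of Dnmt3b was 2.35% ± 0.826 against 2.47% ± 0.924. In an exact two-sided permutation test the shares of Dnmt3a and Dnmt1 each gave p = 0.2, the smallest that 3 against 2 libraries can give, and an adjusted p of 0.467 over the 7 shares compared. The differing Dnmt1 level of the controls enters these shares. The intervals cover counting error only.

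Tet1, a dioxygenase most abundant in embryonic stem cells (chromosome 10, 62804570 to 62908996, minus strand), was close to the detection limit. The 3 BcorΔE9-10 libraries held 22, 14 and 13 of its counts and each BcorWT library held 2. These were levels of 2.60, 2.28 and 1.52 CPM against 0.284 and 0.297 CPM. The groups did not overlap. With 2 counts in each control, Tet1 passed the filter on low counts only through the BcorΔE9-10 libraries, and it was not tested where at least 10 counts were asked of every library. Its fits are therefore given as a description. Summed over libraries, 49 counts stood against 4, a ratio of 7.30 after scaling (exact 95% interval 2.68 to 27.9, counting error only). The fitted log2 fold change was 2.55 (SE 0.928, 95% interval 0.59 to 4.51) and did not pass (limma adjusted p = 0.0933). The adjusted p was 0.0326 in edgeR's quasi-likelihood fit (2.81) and 0.0491 with DESeq2 (2.86).

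Tet2, the Tet enzyme most often mutated in myeloid disease (chromosome 3, 133463679 to 133545139, minus strand), had 164, 125 and 211 counts in BcorΔE9-10 and 93 and 108 in BcorWT. Its levels were 19.4, 20.4 and 24.7 CPM against 13.2 and 16.0 CPM. The groups did not overlap, and BcorΔE9-10 library 3 was highest. The log2 fold change of 0.56 (SE 0.213, 95% interval 0.11 to 1.01) did not pass (limma adjusted p = 0.107). It was 0.20 after GC correction (limma adjusted p = 0.622). An antisense gene that overlaps Tet2, Gm42567, had 4 counts in all.

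Tet3, the Tet enzyme of the zygote that is also made in blood cells (chromosome 6, 83362373 to 83459084, minus strand), had 156, 96 and 191 counts in BcorΔE9-10. It had 85 and 68 in BcorWT. The levels were 18.4, 15.7 and 22.3 CPM against 12.1 and 10.1 CPM, again without overlap and again highest in BcorΔE9-10 library 3. The log2 fold change of 0.77 (SE 0.239, 95% interval 0.26 to 1.27) was of the same size as that of Dnmt3a and lay just outside the threshold (limma adjusted p = 0.0514). It passed with the quasi-likelihood test (adjusted p = 0.0403) and without BcorΔE9-10 library 2 (0.87, limma adjusted p = 0.0480). After GC correction it was 0.48 (limma adjusted p = 0.238).

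The transcript ends of the 3 Tet genes were AT-rich. The last 300 bases of Tet1, Tet2 and Tet3 were 24.7%, 27.0% and 30% GC, lower than those of all but 0.612%, 2.27% and 6.49% of the genes tested. Across genes, which are not independent replicates, log2 fold change and GC content of the transcript end had a Spearman correlation of -0.271. When the trend of each library was removed, the fold changes of all 3 Tet genes stayed positive and were smaller, at 2.13, 0.20 and 0.48. The end of Dnmt3a was 36.7% GC and its fold change moved less, from 0.74 to 0.62. Whether GC content affected recovery of these transcripts was not tested.

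**Figure D2:**
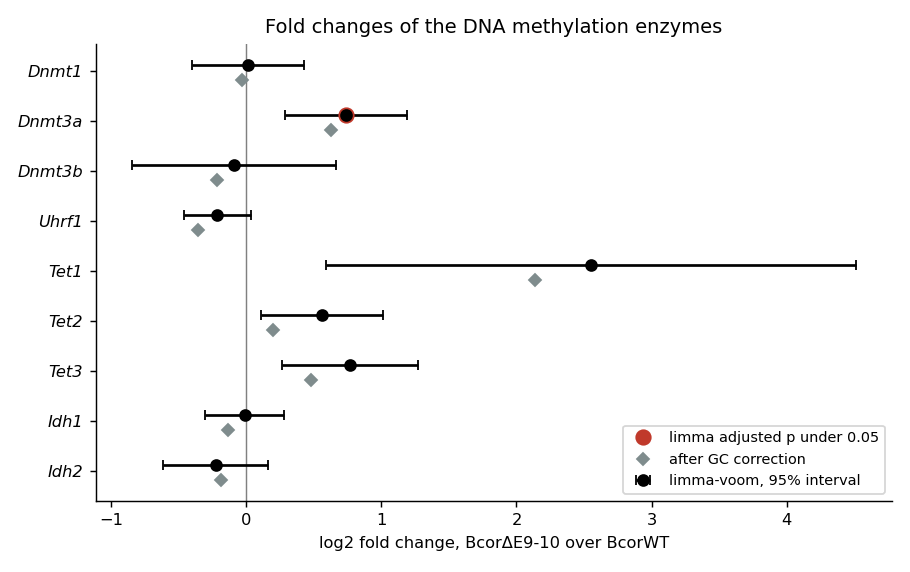
Log2 fold change of each enzyme, BcorΔE9-10 over BcorWT (x axis), with the 95% interval of the limma fit as a bar and the value after GC correction as a grey diamond. Dnmt3a, ringed in red, is past the threshold at 0.74, and the interval of Tet1 is the widest, from 0.59 to 4.51.

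Within the Tet family, Tet2 and Tet3 made up nearly all counts in every library. Tet1 took 6.43%, 5.96% and 3.13% of Tet counts in BcorΔE9-10 (95% Wilson intervals 4.29 to 9.55, 3.58 to 9.75 and 1.84 to 5.29). It took 1.11% (0.305 to 3.96) and 1.12% (0.309 to 4.0) in BcorWT. All BcorΔE9-10 shares were above the controls, although the intervals of libraries 2 and 3 overlapped those of both controls and only that of library 1 lay clear of them. Since Tet1 was tested only through the BcorΔE9-10 libraries, these shares are a description. Tet2 took 50.7% ± 2.62 (SD, n = 3) against 56.2% ± 6.37 (SD, n = 2) and Tet3 44.2% ± 2.88 against 42.7% ± 6.38, with overlapping ranges (exact permutation p = 0.4 and 0.8).

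The isocitrate dehydrogenases supply the co-substrate of the Tet enzymes. Idh1, the cytosolic enzyme (chromosome 1, 65158616 to 65186500, minus strand), was at 87.2, 83.1 and 73.7 CPM in BcorΔE9-10 and at 73.4 and 91.0 CPM in BcorWT. The controls enclosed the BcorΔE9-10 libraries. The log2 fold change was -0.01 (SE 0.138, 95% interval -0.30 to 0.28, limma adjusted p = 0.972).

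Idh2, the mitochondrial enzyme (chromosome 7, 80094846 to 80115392, minus strand), was at 85.9, 91.1 and 64.4 CPM in BcorΔE9-10. It was at 73.3 and 117 CPM in BcorWT, a 1.60-fold difference between the controls with library 2 the higher, as for Dnmt1. The groups overlapped, and the log2 fold change was -0.23 (SE 0.184, 95% interval -0.62 to 0.16, limma adjusted p = 0.469). It was -0.58 without BcorWT library 1 (limma adjusted p = 0.0544) and 0.11 without BcorWT library 2 (limma adjusted p = 0.749). Idh1 took 50.5% ± 2.84 (SD, n = 3) of the summed Idh counts against 46.9% ± 4.51 (SD, n = 2), with overlapping ranges (exact permutation p = 0.4, adjusted p = 0.56). The intervals of both Idh genes exclude a rise of the size fitted for Dnmt3a.

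The 4 enzymes that passed the unadjusted threshold were compared across fits. Dnmt3a passed the adjusted threshold in 5 of 16 alternatives, Tet3 in 4 of 16, Tet1 in 2 of the 15 in which it was tested, and Tet2 in 1 of 16, with total counts as the only scaling. Tet1, passed the filter only through the group where it was high, so it had to be higher. Among fits of the same libraries, a kept direction is no independent evidence for genes chosen by that threshold. Dnmt1 was the only other enzyme ever called, in the fits with a lone control described above.

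**Figure D3:**
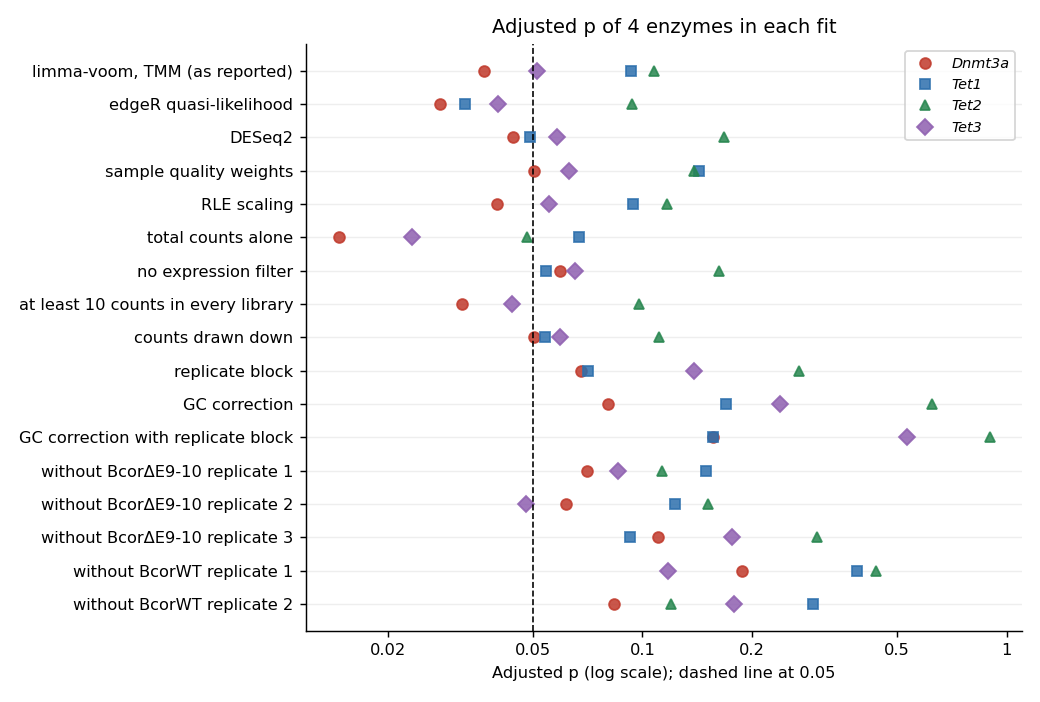
Adjusted p-value (x axis, log scale) of Dnmt3a, Tet1, Tet2 and Tet3 in the reported fit (top row) and in each alternative fit, with a dashed line at 0.05. Dnmt3a lies at 0.0368 in the reported fit and to the right of the line in every fit without 1 library, and Tet2 is left of the line in the fit with total counts alone.

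The genes whose profile over the 5 libraries lay nearest to that of Dnmt3a were found by the root mean square difference of centred log2 CPM, among 9898 genes. They were Zkscan3, a zinc finger factor (0.0269, log2 fold change 0.78, limma adjusted p = 0.0219), Rspry1 (0.0530, 0.63, limma adjusted p = 0.0672) and Kmt2a (0.0548, 0.71, limma adjusted p = 0.0528). Kmt2a encodes the MLL histone methyltransferase. It was at 18.2, 16.6 and 17.4 CPM in BcorΔE9-10 and at 10.1 and 11.3 CPM in BcorWT. Likeness over 5 libraries in 2 groups mostly describes a like step between the groups.

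Proteins that work with these enzymes were read from the same fit. Of 9 tested genes of maintenance methylation and its replication fork partners, 2 were called, in opposite directions, and the median log2 fold change was -0.04, with no stable sign (0.34 without BcorWT library 2). Pcna, the sliding clamp, rose to 220 ± 24.7 CPM (SD, n = 3) from 138 ± 19.8 CPM in BcorWT (SD, n = 2), or by 0.67 on the log2 scale (limma adjusted p = 0.00359), and was called in 16 of 16 alternatives. Lig1, the ligase that joins Okazaki fragments, fell from 436 ± 28.4 to 318 ± 40.2 CPM (-0.46, limma adjusted p = 0.0184), but was called in 13 of 16 alternatives and not without BcorWT library 2 (limma adjusted p = 0.0796) or after GC correction (0.0511). Of 9 tested de novo partners and related methyltransferases 1 was called higher, with a median of 0.06 (-0.24 without BcorWT library 1). It was Setdb1, a histone methyltransferase, at 106, 69 and 101 counts against 10 and 45 (1.94, limma adjusted p = 0.0138). Without BcorWT library 1 its log2 fold change was 0.82 and was not called (limma adjusted p = 0.220).

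Of 9 methyl-CpG readers tested, Mbd2 was the only one called. It rose to 65.4 ± 5.26 CPM (SD, n = 3) from 37.7 ± 6.46 CPM in BcorWT (SD, n = 2), or by 0.80 on the log2 scale (limma adjusted p = 0.00386), and lost its call without BcorWT library 1 (limma adjusted p = 0.0567). The median of the readers was 0.11. Of 13 tested Tet partners and base excision genes 1 was called higher, with a median of 0.16 that was -0.19 without BcorWT library 2. Cxxc5, a CG-binding zinc finger protein related to the CXXC domain of Tet1, had 110, 85 and 110 counts against 22 and 25. Its level rose to 13.2 ± 0.549 CPM (SD, n = 3) from 3.41 ± 0.410 CPM in BcorWT (SD, n = 2), or by 1.93 on the log2 scale (limma adjusted p = 0.00213), and it was called in 16 of 16 alternatives. Among the partners named here, Cxxc5 and Pcna were thus called under every alternative run.

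Of 14 tested genes of the S-adenosylmethionine cycle, which supplies the methyl group, 1 was called higher and the median was -0.04. This was Mat2b, the regulatory subunit of methionine adenosyltransferase, at 41.8 ± 6.56 CPM in BcorΔE9-10 (SD, n = 3) and 20.5 ± 6.05 CPM in BcorWT (SD, n = 2). Its log2 fold change was 1.04 (limma adjusted p = 0.00475) and 0.72 without BcorWT library 1 (limma adjusted p = 0.0776). All 24 listed genes of 2-oxoglutarate and citric acid metabolism were tested, 2 were called higher and 1 lower, and the median was -0.05. Fh1, fumarate hydratase, was higher (0.76, limma adjusted p = 0.0211) and Mdh2, mitochondrial malate dehydrogenase, lower (-0.40, limma adjusted p = 0.0137), each called in 13 of 16 alternatives and neither without BcorWT library 1. Sdhd, a membrane subunit of succinate dehydrogenase, had 108, 233 and 166 counts against 2 and 8 (4.94, limma adjusted p = 0.0140). Both control counts lie under the filter's minimum of 10, so Sdhd was tested only through the BcorΔE9-10 libraries and its call is no support. The call was lost without either BcorWT library, and whether reads of similar sequences elsewhere enter its count was not tested.

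Dnmt1 and Uhrf1 are made mostly in cycling cells, so genes of the cell cycle were read beside them. All 27 listed DNA replication and S phase genes were tested, with 1 called higher, 1 called lower and a median of -0.04 (0.11 without BcorWT library 2). Mcm4, a subunit of the replicative helicase, was higher (0.64, limma adjusted p = 0.00681, 0.19 and not called after GC correction, 0.39 and not called without BcorWT library 1). Ccne1, cyclin E1, was lower (-0.64, limma adjusted p = 0.0350) but in only 7 of 16 alternatives. Of the 18 mitosis genes, all tested, 2 were called higher and 4 called lower. The median was -0.20, and it was -0.0096 without BcorWT library 2 and -0.37 without BcorWT library 1. The checkpoint kinase Bub1 (1.42) and the chromosome passenger kinase Aurkb (1.01) were higher, at 0.76 and 0.67 without BcorWT library 1, where neither was called. Plk1 (-0.59), Mki67 (-0.54), Cenpf (-0.43) and Birc5 (-0.40) were lower, and of these only Mki67 was called in 16 of 16 alternatives. Without BcorWT library 2 Plk1 was at -0.38 and Birc5 at -0.25, and neither was called. The summed level of the mitosis genes was 2578 to 2746 CPM in BcorΔE9-10 against 2890 and 3578 CPM in BcorWT, the higher again in the BcorWT library 2 that was also higher for Dnmt1 and Idh2. Whether cycling contributed to the spread of Dnmt1 was not tested.

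**Figure D4:**
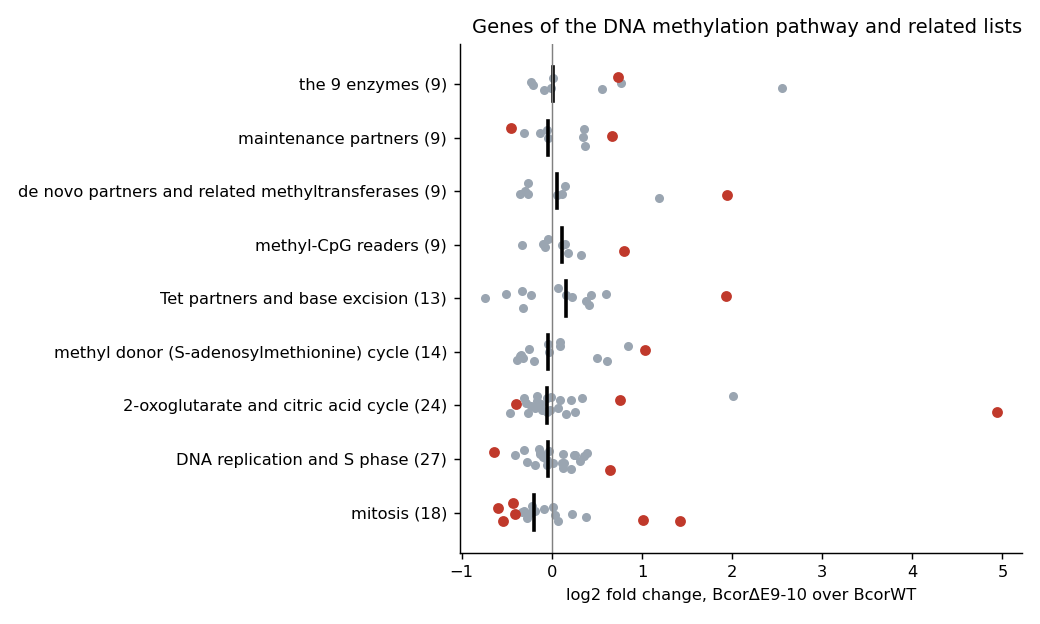
Log2 fold change, BcorΔE9-10 over BcorWT (x axis), of each tested gene of the 9 enzymes and of 8 lists of related genes, with the number tested in brackets. Red points had a limma adjusted p-value under 0.05 and the black bar is the median of each list, which lies between -0.20 (mitosis) and 0.16 (Tet partners and base excision) with all libraries kept. Without BcorWT library 2 these medians are -0.0096 and -0.19.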

How the data were processed

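Gene expression was measured in KL cells with QuantSeq 3′ libraries, 3 BcorΔE9-10 and 2 BcorWT, grouped by their titles. Reads of low quality were discarded by the authors, poly-A and the first bases were trimmed with cutadapt, and the rest were aligned to mm10 with HISAT2 and counted per gene with featureCounts (Subread version 1.5.0-p3 per the submitters' processing notes). The deposited values are raw counts, not normalised. Options for strand and multiply aligned reads were not given in the sources used here. A symbol was matched for 52403 of 52550 genes, and 95.0% had the same start and end in GENCODE M21. Total counts of 5998924 to 8303999 per library leave enzymes with few counts imprecise, and reads were not counted by molecule.

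The filterByExpr function in edgeR 4.0.16 (at least 10 counts, 15 in total) left 11766 genes. After TMM scaling, genotype was tested two-sided by limma-voom (limma 3.58.1, R 4.3.3), and p-values were adjusted by the method of Benjamini and Hochberg across these genes. CPM are counts per 1e+06 of the TMM-scaled total. Shares were compared with exact permutation tests (scipy version 1.17.1). Libraries of the same group differed by more than counting error, with a mean chi-square per gene of 5.96 to 11.3. This cannot show that they came from different animals, and each was kept as a replicate. The enzymes, gene lists, tests and naming rule were chosen with earlier results of these data known. The rule named all 9 enzymes, Bcor, the called genes of each list (at most 4 per direction, by size of fold change) and the 3 genes nearest in profile to each called enzyme. Setting the study's threshold as unadjusted was added after the data were seen. Alternatives were edgeR's quasi-likelihood test, DESeq2 (version 1.42.0), sample quality weights, other scalings and filters, counts drawn down to the smallest library, a replicate block, GC correction (lowess span 0.3 over the last 300 bases) and leaving out each library. The procedures were tested on simulated counts. No protein sequences were used here.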

Additional observations from a re-analysis of the deposited data

How the results depend on the processing

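The number of enzymes called, 1 with all libraries, was 3 with the quasi-likelihood test and 2 with DESeq2, both with Tet1 among them, whose place is no support and without which these were 2 and 1. It was 3 with total counts alone and 2 with at least 10 counts in every library. It was 0 with sample quality weights, no expression filter, counts drawn down, GC correction, and GC correction with the replicate block, and 4 at the unadjusted threshold, added after the data were seen. Without 1 library it ran from 0 to 1, and the enzyme called was then Tet3 or Dnmt1 and not Dnmt3a. The number of genes called, 1189, was 1970 at the unadjusted threshold, ran from 1002 to 1454 under the other settings with all libraries, and ran from 558 (without BcorWT library 1) to 1200 without 1 library. It was 774 without BcorΔE9-10 library 2 and 723 without library 3. When total counts alone set the scaling, the median over all genes was 0.15 on the log2 scale.

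Replicate numbers 1 and 2 are shared by the groups, and deviations of same-numbered libraries correlated at 0.0583 and 0.0681. The deviations of the 2 BcorWT libraries mirror each other, so these values cannot decide whether same-numbered libraries were paired. BcorΔE9-10 library 3 has no same-numbered control, so the replicate block takes no contrast from it. With the replicate block 1454 genes and 0 enzymes were called, with Dnmt3a at 0.70 (limma adjusted p = 0.0676), Dnmt3b reversed at 0.33 and Idh1 at 0.0621, and with GC correction as well Dnmt3b was at 0.21.

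Dnmt1, Dnmt3b and Idh1, with log2 fold changes near 0, and Idh2, at -0.23, changed direction in some fits. Dnmt1 reversed with the quasi-likelihood test (-0.0691), DESeq2 (-0.0845), sample quality weights (-0.0043), RLE scaling (-0.0040) and GC correction (-0.0344), Dnmt3b with the quasi-likelihood test (0.0473), DESeq2 (0.0404) and total counts alone (0.0666), and Idh1 with total counts alone (0.14). Without 1 library the log2 fold change ran from -0.51 to 0.53 for Dnmt1, -0.36 to 0.26 for Dnmt3b, -0.17 to 0.15 for Idh1 and -0.58 to 0.11 for Idh2. The difference in share ran from -0.77 to 0.54 percentage points for Dnmt3b and from -3.06 to 5.96 for Tet3. For the other shares the lowest and highest values came from leaving out 1 of the controls, except for Tet1: -4.13 to -0.34 for Dnmt1, 1.11 to 3.59 for Dnmt3a, -10.01 to -1.004 for Tet2, 0.44 to 6.82 for Idh1 and 3.43 to 5.08 for Tet1 (without BcorΔE9-10 library 1 and 3). Dnmt3a, Tet2 and Idh1 were nearest 0, as was Dnmt1, without BcorWT library 2. Without 1 library the medians of the lists ran from -0.053 to 0.34 for maintenance partners, -0.24 to 0.08 for de novo partners, 0.03 to 0.10 for readers, -0.19 to 0.25 for Tet partners and base excision, -0.13 to 0.04 for the methyl donor cycle, -0.11 to -0.01 for citric acid metabolism, -0.12 to 0.11 for DNA replication and -0.37 to -0.0096 for mitosis. Of 527 further comparisons of other named genes with an alternative, 66 lost a call, 4 gained one and none of them changed direction. The difference between the 2 controls leaves the values of Dnmt1 and Idh2 imprecise. Apart from the unadjusted threshold and the loss of libraries, the cause of these changes was not tested.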
